A study of Mus musculus with 4 samples.

Results

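The Toll-like receptors are membrane proteins that recognise microbial molecules and molecules released by damaged cells. Tlr1, Tlr2, Tlr4, Tlr5 and Tlr6 act at the cell surface, where Tlr2 pairs with Tlr1 or Tlr6 to bind lipoproteins, Tlr4 responds to lipopolysaccharide and Tlr5 to flagellin. Tlr3, Tlr7, Tlr8, Tlr9 and Tlr13 act in endosomes on nucleic acids. All except Tlr3 signal through the adaptor Myd88, Tlr3 uses Ticam1, and Tlr4 uses both. The family was taken as 10 genes, and its members on the array were the probes that carry one of these names in the scanner files. Of the 10 genes, 9 had such a probe and Tlr13 had none, which gave 11 of 41158 probes and 29 spots on each array. The array holds 27606 gene names in all.

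The samples were alveolar type II cells, which line the alveoli and secrete surfactant, taken by flow cytometry from dissociated lungs of mice labelled female. The 4 groups were Tlr3 deficient mice (Tlr3-/-) 2 weeks after Lewis lung carcinoma, a mouse lung cancer line, was placed under the skin, Tlr3 deficient mice without tumor, wild-type (WT) mice with the same tumor after the same time, and WT mice without tumor. Each group is 1 array, so every value below describes single arrays, with no test and no p-value. The labels do not give the age of the mice, how many were pooled, which part of Tlr3 is deleted or which markers the sort used. The comparisons address which Toll-like receptor transcripts differ in tumor-bearing mice and whether they differ with Tlr3.

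Signal is a Cy3 intensity, and a level is its log2 value minus that of the array's 75th percentile over gene spots, which was 904 with tumor and 758 without in Tlr3 deficient mice, and 796 with tumor and 555 without in WT mice. Between 61.0% and 65.4% of gene spots were well above background, and no spot was saturated. Replicate spots of 1 probe varied most on the WT array without tumor, with a standard deviation (SD) of 0.29 log2 units against 0.083 to 0.12 on the other arrays. On that array the SD was 0.33 in columns 1 to 51 and 0.12 in columns 52 to 85. The single spots of Tlr1, Tlr5, Tlr6, Tlr7, Tlr8, Tlr9 and Tlr3 probe A_52_P85174 lie in columns 1 to 51, as do 7 of 10 Tlr2 spots and 5 of 10 spots of the brighter Tlr4 probe, whereas Tlr3 probe A_51_P291906 lies outside them. This spread touches every WT tumor and no-tumor genotype difference of these spots. The arrays lie on 3 slides, and only those of WT mice with tumor and of Tlr3 deficient mice without tumor share one, so the groups cannot be told apart from their slides. All 12 type II markers, among them Sftpc and Lamp3, were above background on all 4 arrays, and 0 of them differed 2-fold in any comparison. Leukocyte and neutrophil markers were higher on both tumor arrays, with values given beside the receptor results below. The array labelled Tlr3 deficient without tumor had a male pattern of sex-linked genes, although its mice were labelled female. There 4 of 4 Y-linked genes were above background, against 0 on the other 3 arrays, and Xist was lower than on the WT array without tumor by a log2 difference of -8.10. Results that use this array (tumor in Tlr3 deficient mice and genotype without tumor) therefore also compare a male-pattern array with a female-pattern array. Whether the sample or its label is at odds cannot be told from these arrays, and the part this plays in the results was not tested.

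Each probe is a 60-base oligonucleotide. The probes of Tlr2 and its partner Tlr1 are shown because the receptors are related in sequence. The Tlr1 probe lies at chr5:65316115-65316174 and the Tlr2 probe at chr3:83640344-83640403, both on the minus strand of mm9. Capitals mark the longest run of letters that the pair shares.
Tlr1: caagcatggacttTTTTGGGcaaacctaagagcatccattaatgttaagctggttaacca
Tlr2: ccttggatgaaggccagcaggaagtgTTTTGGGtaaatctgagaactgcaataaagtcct
The shared run is 7 bases long, and with the probes set on that run 29 of 47 facing bases were alike. Over all 55 pairs of the family's probes, no run shared by probes of different genes was longer than 8 bases. Probes were compared only with each other and not with transcripts. Whether a probe binds the transcript of another receptor cannot be told from these runs and was not tested.

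The Tlr3 probes are shown because they measure the targeted gene. They lie at chr8:46482009-46482068 (A_51_P291906) and chr8:46481729-46481788 (A_52_P85174), minus strand, and share no run over 5 bases. A stretch of 30 bases of each follows, with the hexamer AATAAA, the canonical polyadenylation signal, in capitals where it occurs.
Tlr3 A_51_P291906, bases 1 to 30: gggcagttaaaaacatcctctattaataga
Tlr3 A_52_P85174, bases 16 to 45: agacgtttatagAATAAAagataattgctt
AATAAA was present in 4.78% of all gene probes on the array and in 2 of the 11 Toll-like receptor probes, the second being that of Tlr2. The match is a description of letters and shows no polyadenylation site. Exon and UTR positions of the probes were not analysed here.

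**Figure D1:**
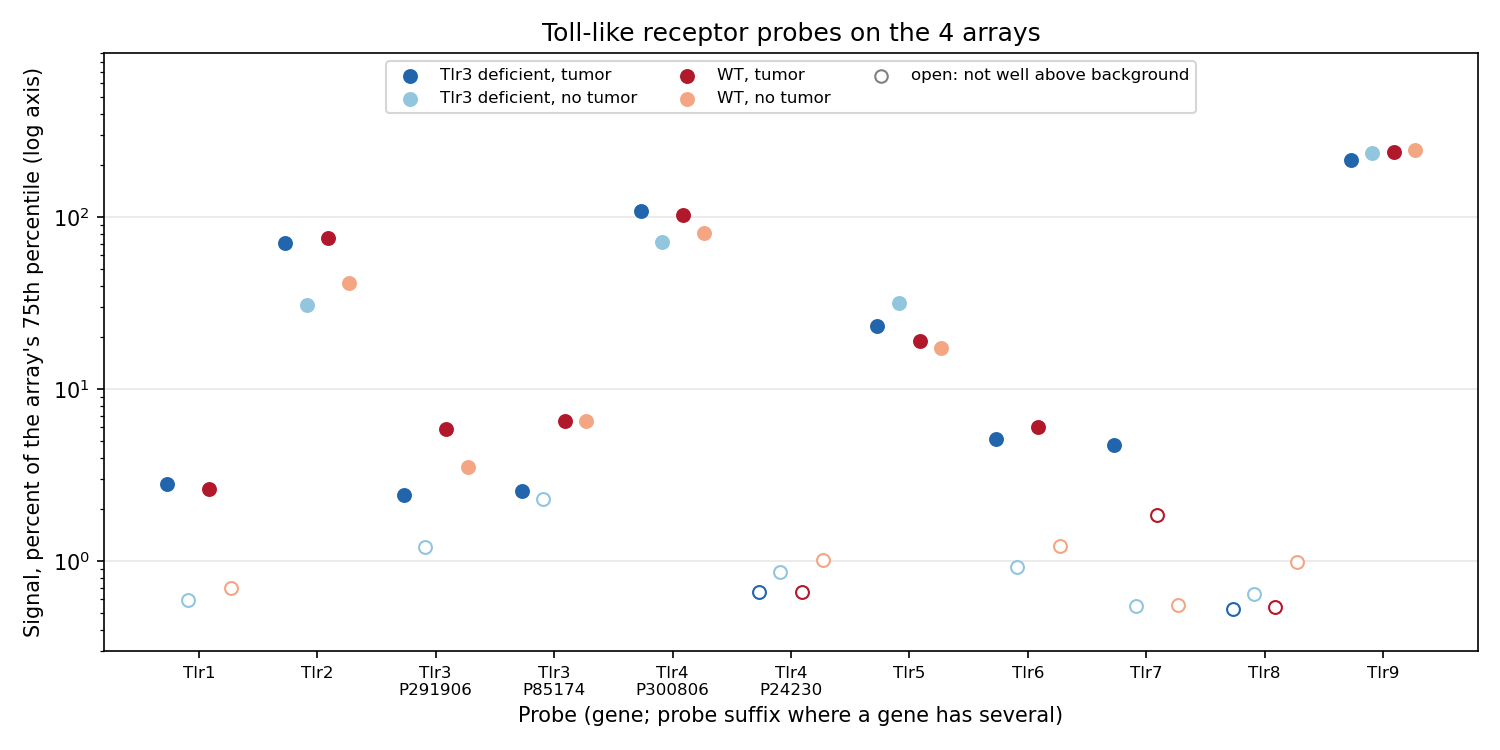
Signal of the 11 Toll-like receptor probes as a percent of each array's 75th percentile, on a log axis, with 1 point per array and open points where the probe was not well above background. Tlr2, Tlr4, Tlr5 and Tlr9 have filled points on all 4 arrays, Tlr1 and Tlr6 on the 2 tumor arrays, Tlr7 on 1 array, and Tlr8 on none. Heights of different probes are not comparable.

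Of the 9 genes with a probe, 4 were well above background on all 4 arrays (Tlr2, Tlr4, Tlr5 and Tlr9) and 8 on at least 1 array. Over all genes these counts were 15797 and 18855 of 27606. A member was compared where either array of a pair had it well above background, and called where it differed at least 2-fold. Where only 1 array of the pair did, its difference is given as a bound, "at least", with the dim value raised to the lowest signal that passed on its array unless it already lay higher. The error given with a log2 difference combines the scanner software's own 1-spot errors on the 2 arrays, or on 4 for a difference of tumor changes. For Tlr2 and Tlr4 it is averaged over the spots and not reduced for their number. Standard errors over replicate spots were smaller, at 0.021 to 0.047 for Tlr2 and 0.024 to 0.13 for the brighter Tlr4 probe. These errors cover the spots and not the animals.

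Tlr3, the receptor for double-stranded RNA and the targeted gene, was lower in Tlr3 deficient mice at both probes. Probe A_52_P85174 read 23.0 with tumor and 17.4 without in Tlr3 deficient mice, against 51.7 with tumor and 36.5 without in WT mice. Probe A_51_P291906 read 22.0 and 9.13 in Tlr3 deficient mice, with tumor and without, against 46.5 and 19.5 in WT mice. In Tlr3 deficient mice both probes were well above background with tumor, and neither was without. Their tumor signals were only just above the lowest signal called well above background on that array (21.2). At A_52_P85174 the raw signal was 75.5 with tumor and 75.6 without, so detection with tumor shows no rise. The fold values below rest on these faint signals. With tumor, Tlr3 was 2.55-fold lower in Tlr3 deficient mice at the first of these probes (log2 difference -1.35 ± 0.35) and 2.40-fold lower at the second (-1.26 ± 0.37). Without tumor it was at least 2.44-fold lower at the first, whose WT spot lies in the more variable columns, and at least 1.31-fold lower at the second. Since the labels do not say where the deletion lies, whether these probes sit inside it is not known, and they are a partial check of the genotype.

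The tumor difference of Tlr3 in WT mice depended on the probe. It was -0.02 ± 0.26 at A_52_P85174 and 0.73 ± 0.31 at A_51_P291906, and only the second exceeded its scanner error. The first probe lies in the more variable columns of the WT array without tumor, and the second does not. The second was faint on that array, at 19.5 where the lowest signal called well above background was 14.6. With normexp background correction, whose offset shrinks dim differences, the values were -0.26 at A_52_P85174 and -0.02 at A_51_P291906. The higher Tlr3 value with tumor at A_51_P291906 thus did not hold under that correction. In Tlr3 deficient mice the measured tumor differences were 0.15 and 1.01 at these probes, against a spot not well above background, and the bound gives no fold at either.

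Tlr2 is the lipoprotein receptor that forms dimers with Tlr1 and Tlr6. Its probe is printed as 10 spots on each array. The spots not flagged as outliers read 604 to 671 (median 644) with tumor and 217 to 262 (median 234) without in Tlr3 deficient mice. In WT mice they read 573 to 631 (median 610) with tumor and 201 to 270 (median 229) without. The lowest spot of either tumor array was thus brighter than the highest spot of either array without tumor, and this held after scaling to the 75th percentile. Tlr2 was 2.28-fold higher with tumor in Tlr3 deficient mice (log2 difference 1.19 ± 0.21) and 1.84-fold higher in WT mice (0.88 ± 0.21). Between genotypes the log2 difference was -0.10 ± 0.20 with tumor and -0.41 ± 0.21 without, the second being larger than its scanner error. One spot on each array without tumor carried an outlier flag and was left out, at 77.4 in Tlr3 deficient mice and 168 in WT mice.

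Tlr6, which pairs with Tlr2 to bind diacylated lipoproteins, was well above background only on the tumor arrays. Its probe lies at chr5:65344365-65344424 on the minus strand of mm9 and read 46.6 with tumor and 7.03 without in Tlr3 deficient mice, and 48.1 with tumor and 6.82 without in WT mice. Both tumor arrays were brighter than both arrays without tumor, where the probe was not well above background. Tlr6 was at least 1.92-fold higher with tumor in Tlr3 deficient mice and at least 2.30-fold higher in WT mice. With tumor, the genotypes differed by -0.23 ± 0.29, within the scanner error.

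Tlr1, the other partner of Tlr2 and the neighbour of Tlr6 on chromosome 5, had the same pattern of detection. It read 25.4 with tumor and 4.50 without in Tlr3 deficient mice, and 20.9 with tumor and 3.86 without in WT mice. The tumor signals were only just above the lowest signal called well above background. The bound was at least 1.04-fold higher in Tlr3 deficient mice, and in WT mice it gave no fold. With tumor the genotypes differed by 0.10 ± 0.43.

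Tlr4, the lipopolysaccharide receptor, has 1 probe with 10 spots (chr4:66503724-66503782, plus strand) and a second probe (chr4:66590556-66590615) that was not well above background on any array. Spots of the first read 933 to 1030 (median 991.5) with tumor and 510 to 597 (median 547.5) without in Tlr3 deficient mice. In WT mice they read 692 to 924 (median 826.5) with tumor and 211 to 581 (median 465.5) without. Spots of the Tlr3 deficient arrays did not overlap, whereas those of the WT arrays overlapped once scaled to the 75th percentile. The log2 difference with tumor was 0.60 ± 0.20 in Tlr3 deficient mice (1.51-fold) and 0.36 ± 0.20 in WT mice (1.28-fold). Both fell short of 2-fold. With the mean of both Tlr4 probes, the dim one included, these differences were 0.11 in Tlr3 deficient mice and -0.13 in WT mice. The turned direction in WT mice comes from the dim probe, whose own difference there was -0.61 ± 2.04. Between genotypes Tlr4 differed by 0.08 ± 0.20 with tumor and by -0.16 ± 0.20 without, within the scanner error.

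**Figure D2:**
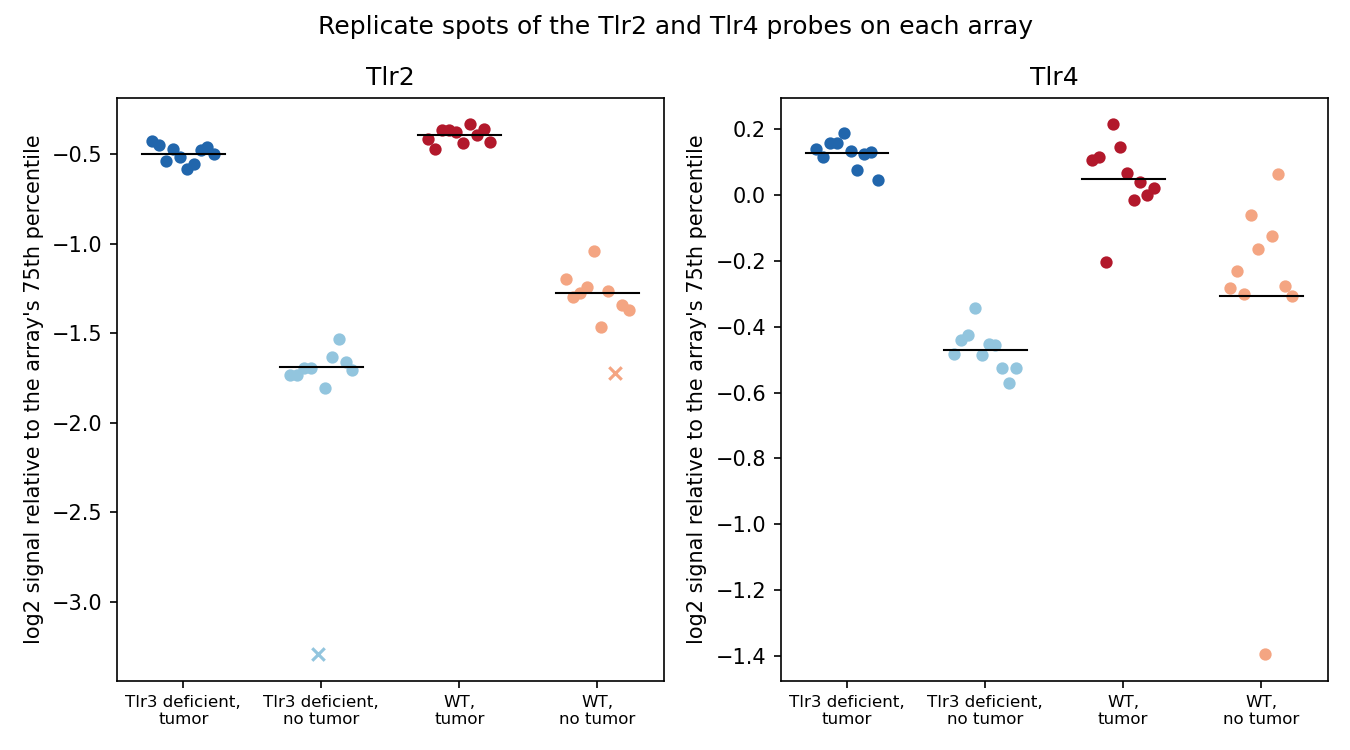
Level of every replicate spot of the Tlr2 probe and of the brighter Tlr4 probe on each array, as log2 of its ratio to the 75th percentile, with the mean of unflagged spots as a line and outlier-flagged spots as crosses. Unflagged Tlr2 spots of the tumor arrays lie above those of the arrays without tumor, and 1 Tlr4 spot of the WT array without tumor (intensity 211) lies far below the rest.

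Tlr5, the flagellin receptor, was the only surface receptor measured on all 4 arrays that was not higher with tumor in both genotypes. It read 211 with tumor and 240 without in Tlr3 deficient mice, against 151 with tumor and 96.2 without in WT mice. Both Tlr3 deficient arrays were brighter than both WT arrays. Relative to the 75th percentile, the tumor difference was -0.44 ± 0.21 in Tlr3 deficient mice and 0.13 ± 0.22 in WT mice. The genotype difference was 0.30 ± 0.21 with tumor and 0.87 ± 0.21 without (1.83-fold). The WT tumor and the no-tumor genotype differences use a single spot in columns with an SD of 0.33 log2 units on the WT array without tumor, which is wider than the scanner error.

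Tlr9, the endosomal receptor for unmethylated CpG DNA, varied least of the members measured on all 4 arrays. It read 1940 with tumor and 1790 without in Tlr3 deficient mice, and 1900 with tumor and 1360 without in WT mice. After scaling, its highest and lowest arrays were 0.19 log2 units apart. The tumor difference was -0.14 ± 0.20 in Tlr3 deficient mice and -0.04 ± 0.20 in WT mice. Tlr9 differed by -0.15 ± 0.20 between genotypes with tumor and by -0.05 ± 0.20 without, so none of its differences exceeded the scanner error. Its single spot, too, lies in the more variable columns of the WT array without tumor.

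Tlr7 and Tlr8, neighbouring X-linked genes for receptors of single-stranded RNA, were mostly below detection. Tlr7 read 43.0 with tumor and 4.14 without in Tlr3 deficient mice, and 14.7 with tumor and 3.1 without in WT mice. Only the array of Tlr3 deficient mice with tumor had it well above background. There it was at least 1.77-fold higher than in Tlr3 deficient mice without tumor and at least 1.99-fold higher than in WT mice with tumor, so it was not called in either comparison. The second bound is just under 2-fold, and Tlr7 was called higher between genotypes with tumor under quantile scaling, median scaling, no filter on dim probes and the deposited value table. Tlr8 read 4.80 and 4.90 in Tlr3 deficient mice, with tumor and without, and 4.34 and 5.52 in WT mice. It was not well above background on any array, and its raw signal of 43.3 to 50.1 lay near the arrays' negative-control medians of 44.3 to 46.7. At this signal a difference in Tlr8 was not detectable.

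**Figure D3:**
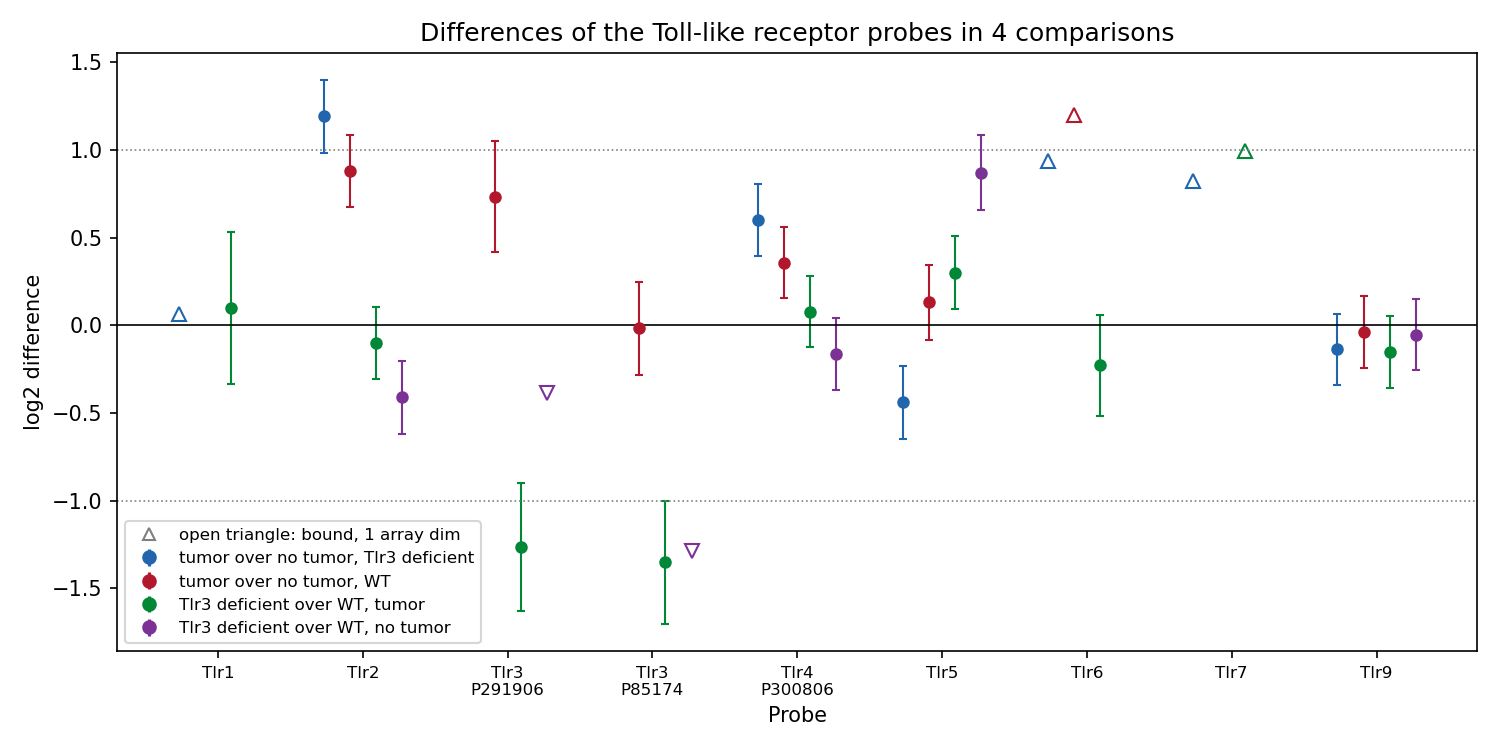
Log2 differences of the Toll-like receptor probes in the 4 comparisons, with the scanner error of the 2 spots as bars, bounds as open triangles and dotted lines at 2-fold. Bounds that give no fold are not drawn. Tlr2 and the Tlr6 bounds lie highest in the tumor comparisons, and both Tlr3 probes lie lowest in the genotype comparison with tumor.

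Counted over the family, 1 of 8 members compared was called higher with tumor in Tlr3 deficient mice (Tlr2) and none lower. Of all genes compared there, 8.39% were called, 4.5% higher and 3.9% lower. In WT mice 1 of 7 was called higher with tumor (Tlr6) and none lower, where 7.22% of all genes were called, 5.66% higher and 1.56% lower. With normexp background correction (offset of 50) neither call held, Tlr2 then differing by 0.99 in Tlr3 deficient mice and Tlr6 by 0.12 in WT mice, and quantile scaling also ended that of Tlr6. One call among so few members is close to these shares and is no result about the family. With dim spots at their bounds, the median log2 difference of the members compared was 0.33 in Tlr3 deficient mice and 0.13 in WT mice, against -0.01 and 0.00 over all genes. The measured medians were 0.89 in Tlr3 deficient mice and 0.36 in WT mice. They include Tlr1 and Tlr6, and in Tlr3 deficient mice Tlr7, which were compared only because the tumor array was above background, so these medians support nothing about the family.

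Between genotypes, 1 of 8 members was called lower with tumor and 1 of 5 without tumor, and in both comparisons it was Tlr3, the targeted gene. With normexp Tlr3 differed by -0.62 with tumor and -0.61 without and was not called, and the mean of both probes ended the call without tumor. Of all genes, 5.57% were called with tumor (2.9% higher and 2.67% lower) and 8.22% without tumor (5.89% higher and 2.34% lower). The median member difference was -0.01 with tumor and -0.16 without, against -0.05 and -0.04 over all genes. Each tumor comparison shares an array with each genotype comparison, so these counts are not independent of each other.

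The difference of the tumor changes, Tlr3 deficient minus WT, was taken for the 4 members above background on all 4 arrays. It was 0.31 ± 0.29 for Tlr2, 0.24 ± 0.29 for Tlr4, -0.57 ± 0.30 for Tlr5 and -0.10 ± 0.29 for Tlr9. None reached 2-fold, and only those of Tlr2 and Tlr5 exceeded their scanner error. All 4 use spots in the more variable columns of the WT array without tumor, wholly for Tlr5 and Tlr9 and in part for Tlr2 and Tlr4.

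Markers of blood cells moved in the same tumor comparisons as Tlr2 and Tlr6. Of the 7 leukocyte markers compared, 7 were called higher with tumor in each genotype, with median log2 differences of 3.24 in Tlr3 deficient and 2.68 in WT mice, or 2.79 and 2.68 in these mice at the bounds. The largest measured were Cd53 (3.55, at the bound 1.56), Cd52 and Coro1a (3.28 each) in Tlr3 deficient mice, and Coro1a (3.30), Cd52 (3.23) and Tyrobp (2.73) in WT mice. The summed level of the list was 801% of the 75th percentile with tumor and 138% without in Tlr3 deficient mice, and 856% with tumor and 152.5% without in WT mice. Spi1 was not well above background on any array. Of 10 neutrophil markers compared, 9 were called higher with tumor in each genotype, with medians of 3.60 in Tlr3 deficient and 4.09 in WT mice. At the bounds the neutrophil medians were 3.12 in Tlr3 deficient and 2.96 in WT mice, which turns the order of the genotypes. The called markers were led by Camp (5.23, at the bound 3.02), S100a8 (4.85) and S100a9 (4.34) in Tlr3 deficient mice and by S100a8 (5.39), S100a9 (5.17) and Csf3r (4.68, at the bound 3.18) in WT mice.

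The neutrophil list summed to 6846% with tumor and 354% without in Tlr3 deficient mice, and to 10667% with tumor and 392% without in WT mice, with Elane not well above background on any array. Alveolar macrophage markers had a median difference of 0.89 in Tlr3 deficient mice and 0.04 in WT mice, with 3 and 1 of 8 called higher. Their sum was 1352% with tumor and 510% without in Tlr3 deficient mice, and 640% with tumor and 678% without in WT mice. Type II markers had medians of 0.06 in Tlr3 deficient mice and -0.07 in WT mice. T and NK cell markers had medians of 1.61 in Tlr3 deficient mice (1.23 at the bounds) and 0.52 in WT mice over 5 compared. In Tlr3 deficient mice Cd3d (1.87, at the bound 1.27), Lck (1.81, at the bound 1.23) and Nkg7 (1.61) were highest. Cd3e (-0.31) and Klrb1c (0.10) did not share this rise there, and the T cell markers thus moved in different directions. Cd3g, Cd8a and Ncr1 were not well above background on any array. Type I markers had medians of -1.04 in Tlr3 deficient mice and -0.93 in WT mice, the first led by Rtkn2 (-1.82), Hopx (-1.19) and Pdpn (-1.14). The medians of the B cell, plasma cell, monocyte and dendritic cell, endothelial, fibroblast and club cell lists moved by less than 2-fold in both. Single genes of these lists moved further, and they are named here for their size after their values were seen. Jchain, the joining chain of secreted antibodies, was higher with tumor by 7.36 in Tlr3 deficient and 1.57 in WT mice. Among monocyte and dendritic cell markers, Ccr2 was higher by 3.74 in Tlr3 deficient and 3.08 in WT mice (1.09 at the bound), Itgax by 2.77 and 1.26 in these mice, and Fcgr1 by 2.00 and 2.28 (1.80 and 1.82 at the bounds). The B cell marker Ms4a1 was higher by 2.46 in Tlr3 deficient and 1.84 in WT mice (1.87 and 1.46 at the bounds), and Fcer2a by 3.16 in Tlr3 deficient mice, against an uncalled 0.86 in WT mice.

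Between genotypes no marker list had a median that moved 2-fold, with tumor or without. With tumor, the markers called higher in Tlr3 deficient than in WT mice came from several lists. They were Jchain (4.52), Mpo (2.69), Chil3 (1.75), Marco (1.65) and Fcer2a (1.60). Cd3d (1.49, at the bound 1.44), Vwf (1.06), Mzb1 (1.03) and Ccr2 (1.01) were called higher too. Klrb1c (-1.58) and Ltf (-1.52) were called lower. Among T and NK cell markers compared but not called, Cd3e differed by -0.43, Cd4 by -0.23 (at the bound likewise), and Lck and Nkg7 by 0.56 each. Tlr7, brighter in Tlr3 deficient than in WT mice with tumor, was itself not called. In a bulk sample fewer cells of a type and less RNA per cell cannot be told apart, and the part that blood cells play in the receptor values was not tested.

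**Figure D4:**
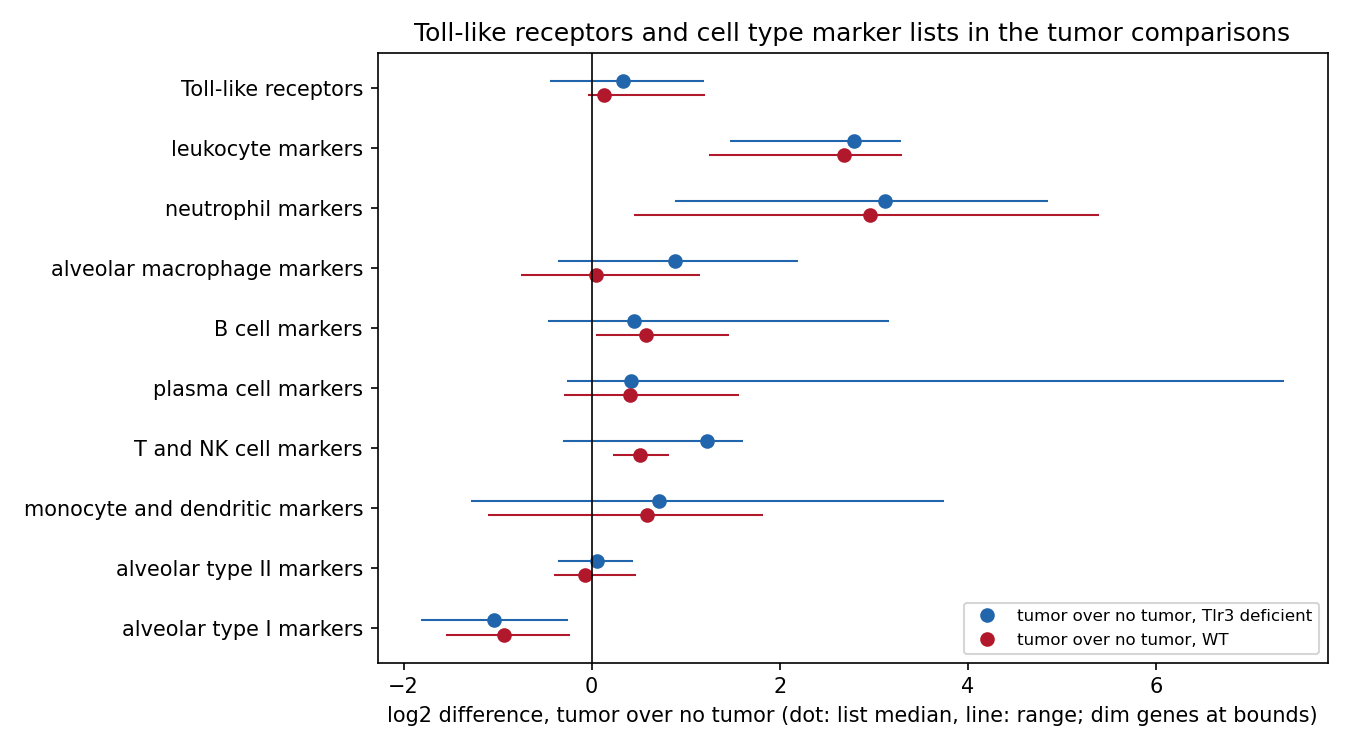
Median log2 difference, tumor over no tumor, of the Toll-like receptors and of cell type marker lists in Tlr3 deficient and WT mice, with a line from the lowest to the highest gene compared and with dim spots at their bounds. The receptor medians are 0.33 in Tlr3 deficient and 0.13 in WT mice, and the leukocyte medians 2.79 and 2.68 in these mice.

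The genes that work with the receptors were set in 7 lists, of which 66 genes were on the array and 61 were compared in each comparison. With tumor, 6 were called higher and 0 lower in Tlr3 deficient mice, and 5 higher and 1 lower in WT mice. The share called higher was 9.84% in Tlr3 deficient mice, where it was 4.5% of all genes, and 8.2% in WT mice, where it was 5.66%. The medians of 0.05 in Tlr3 deficient and -0.02 in WT mice were close to those of all genes. Between genotypes, 0 were called higher and 1 lower with tumor, and 0 higher and 2 lower without. The share called lower was 1.64% with tumor and 3.28% without, where it was 2.67% and 2.34% of all genes. Most of the pathway was thus within 2-fold on these arrays, and the exceptions are named by role.

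Among co-receptors, Clec7a, the beta-glucan receptor that cooperates with Tlr2, was higher with tumor by log2 differences of 3.56 in Tlr3 deficient and 2.06 in WT mice. Ly86, the partner of the Tlr4 relative Cd180, was higher by 1.85 and 1.20 in the same comparisons. Cd14, which hands lipopolysaccharide to Tlr4, was higher by 1.13 in Tlr3 deficient mice and differed by 0.05 in WT mice. These 3 genes moved the same way as Tlr2 in Tlr3 deficient mice, and Clec7a was also lower between genotypes without tumor (-1.32). Ly96, the other lipopolysaccharide-binding partner of Tlr4, differed by 0.49 in Tlr3 deficient and 0.23 in WT mice and was not called. The list's brightest gene, Cd36, a scavenger receptor that can assist Tlr2 with Tlr6, differed by -0.06 in Tlr3 deficient and 0.73 in WT mice.

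Among proteases, Ctss, one of the cathepsins that cleave endosomal receptors, was higher with tumor by 2.64 in Tlr3 deficient and 1.50 in WT mice. Ctsb, the brightest of the list, differed by 0.16 in Tlr3 deficient and 0.04 in WT mice. No gene of the chaperone and trafficking list was called. Hsp90b1, the chaperone that folds most Toll-like receptors, differed by -0.33 in Tlr3 deficient and -0.04 in WT mice, and Unc93b1, which carries endosomal receptors from the endoplasmic reticulum, by 0.51 in Tlr3 deficient and -0.12 in WT mice.

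Downstream, the adaptor Myd88 differed by 0.35 with tumor in Tlr3 deficient and -0.08 in WT mice, and Ticam1, the Tlr3 adaptor, by 0.03 in Tlr3 deficient and -0.84 in WT mice. Neither was called. Pik3ap1, which links the receptors to phosphoinositide 3-kinase, was lower in Tlr3 deficient than in WT mice with tumor (-1.19). Irf5, a transcription factor of the Myd88 branch, was higher with tumor by 1.81 in Tlr3 deficient and 1.05 in WT mice. Fos, the brightest of its list, differed by 0.19 in Tlr3 deficient and 0.01 in WT mice. Among kinases, Ikbke was lower with tumor in WT mice (-1.26) and lower between genotypes without tumor (-1.74, at the bound likewise), both against the same WT array without tumor, and Irak1 differed with tumor by 0.29 in Tlr3 deficient and 0.14 in WT mice.

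Of the inhibitors, Irak3, a kinase-like brake on Myd88 signalling, was higher with tumor in Tlr3 deficient mice (1.06) and differed by 0.18 in WT mice. Tnfaip3, the ubiquitin-editing inhibitor of NF-kB, differed with tumor by 0.51 in Tlr3 deficient mice and was called higher in WT mice (1.38). Nfkbia, the brightest inhibitor, differed by -0.51 in Tlr3 deficient and -0.06 in WT mice. Whether any of these tumor differences depends on genotype was not tested, since each group is 1 array.

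The profile of Tlr2 over the 4 arrays, centred on its own mean, was set against the 2418 genes that were likewise above background on all 4 arrays and spanned at least 2-fold. The nearest by Euclidean distance in log2 units were Spata24 (0.033), Hcls1 (0.043) and D130043K22Rik (0.050). Hcls1 differed with tumor by 1.23 in Tlr3 deficient and 0.84 in WT mice, close to 1.19 and 0.88 for Tlr2. With 4 arrays, this is a description of likeness and shows no shared control.

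Tlr2 and Tlr6 were brighter on both tumor arrays, and their upstream sequence is shown for a motif of NF-kB, the factor through which the receptors signal. RefSeq promoters on GRCm38.p6 were matched by symbol for 8 of the 10 genes, and 11 motif spellings were searched in the 250 bases before the start on both strands. The spelling GGG, any 3 letters, then TTCC was found before Tlr2, Tlr3 and 1 of the 2 starts of Tlr6, and in 4.65% of all 32851 promoters. Tlr1, also brighter on both tumor arrays, had no match. A stricter NF-kB spelling (GGGA, any letter, then TTTCC) was found only before Tlr3 among the 8 genes. Spellings for the factors PU.1 (GAGGAAG) and C/EBP (TTGC, any 2 letters, then AA) were each found before 3 of the 8 genes as well. Matches are in capitals. The first sequence is chr3:83841609-83841858 and the second chr5:64960049-64960298, both minus strand.
Tlr2: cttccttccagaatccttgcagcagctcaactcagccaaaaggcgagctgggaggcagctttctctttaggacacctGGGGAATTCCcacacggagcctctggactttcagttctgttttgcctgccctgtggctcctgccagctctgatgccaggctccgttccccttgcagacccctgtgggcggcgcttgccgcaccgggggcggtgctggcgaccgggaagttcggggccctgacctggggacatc
Tlr6: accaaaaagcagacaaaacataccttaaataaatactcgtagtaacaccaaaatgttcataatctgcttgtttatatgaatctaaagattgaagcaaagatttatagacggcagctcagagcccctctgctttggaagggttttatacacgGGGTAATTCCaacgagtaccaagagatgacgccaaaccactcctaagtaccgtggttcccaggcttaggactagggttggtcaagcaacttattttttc
The match begins 173 bases before the Tlr2 start and 99 bases before that Tlr6 start. The spelling was chosen among the 11 after the matches were seen. It names letters only, shows no binding, and was also found before Tlr3, whose tumor difference depended on the probe.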

How the data were processed

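Total RNA of sorted cells was labelled with Cy3 on 1-colour Agilent arrays (design 014868), 1 array per group. The authors deposited the linear spot intensity of Agilent Feature Extraction 10.7.3.1, protocol GE1_107_Sep09, background-subtracted and not scaled between arrays, per the file headers. The authors also deposited a value table in log2 units. Its making is not stated in the headers or labels, and it served as an alternative.

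The scanner intensity was taken to log2 and the array's 75th percentile subtracted. Outlier-flagged spots were left out, spots of a probe averaged, and a gene given the value of its brightest probe (highest mean). Of the probes, 27668 were named through RefSeq accessions (GRCm38.p6, names only), and coordinates are mm9 from the array annotation. Differences were called at 2-fold with no test. The rule for bounds was tested on simulated data. Alternatives were normexp (limma 3.58.1, offset 50), quantile and median scaling, the mean of all probes, 2 other filters and the value table. Python 3.11.15, pandas 2.3.3 and R 4.3.3 were used.

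The members and gene lists were chosen with earlier results of these data known. Named are all members, pathway genes called in any comparison with the brightest of each list, up to 3 markers of each list whose median moved 2-fold in a tumor comparison, and the 3 genes most like a member that spans 2-fold. Other genes are named for their role or size and were chosen after their values were seen.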

Additional observations from a re-analysis of the deposited data

Results flagged for a closer look

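The series' value table, which the report's comparisons do not use, gave Tlr3 a signal that the scanner files do not hold. In it the tumor difference of Tlr3 in WT mice was 7.44 at A_52_P85174 and 6.42 at A_51_P291906, against -0.02 and 0.73 from the scanner files. The table listed 10.5 and 9.37 log2 units on the WT tumor array and 2.05 to 3.08 in its other columns. Against quantile-scaled scanner values, the 2 Tlr3 probes departed by 0.98 to 5.03 log2 units in all 4 columns, upwards with tumor in WT mice and downwards in the other 3. The other 9 Toll-like receptor probes departed by at most 0.12. Over all probes, 4 departed by over 3 log2 units with tumor and 3 without in Tlr3 deficient mice, and 3 with tumor and 2 without in WT mice. Large departures were thus few but not limited to Tlr3. The genotype difference with tumor was -8.25 and -7.17 in the table, and -1.35 and -1.26 in the scanner files. The cause was not tested.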

How the results depend on the processing

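Counts of members called, 1 in each comparison, changed with the processing. No member called above changed direction in the comparison that called it, under any alternative run. The deposited log2 values also called Tlr3 higher with tumor in WT mice (7.44), where it was not called above (-0.02). In the order tumor in Tlr3 deficient, tumor in WT, genotype with tumor and genotype without tumor, normexp called 0, 0, 0 and 0, its offset shrinking dim differences by construction. Quantile scaling called 1, 0, 2 and 1, median scaling 1, 1, 2 and 1, and the mean of all probes 1, 1, 1 and 0. No filter on dim probes called 4, 3, 2 and 1, probes above background on both arrays 1, 0, 1 and 0, and the deposited log2 values 4, 3, 2 and 0. The median over replicate spots, chosen after a low Tlr4 spot was seen, kept all 4 counts at 1. The filters change by construction which dim spots count, whereas normexp compared the same genes. The cause of the changed counts was not tested. For the 4 members above background on all arrays, no difference of tumor changes reached 2-fold under normexp, quantile or median scaling, the mean of all probes or the deposited log2 values. Outside these 4, the deposited log2 values gave Tlr3 -7.22 and -6.37 at its 2 probes and Tlr7 1.54, and the scanner files gave Tlr7 1.40 from dim spots. The uncalled Tlr4 tumor difference in WT mice turned to -0.13 with the mean of all probes, which includes a Tlr4 probe not well above background on any array. The call gained between genotypes with tumor was Tlr7 in each of the 4 alternatives with 2 calls. Over all genes, 1523, 1298, 1017 and 1450 were called, against 738, 590, 430 and 743 with normexp, 3036, 2916, 2331 and 3151 without the filter, and 916, 756, 619 and 884 above background on both arrays. Of the calls for tumor in WT, 78.4% were higher, against 66.1% with quantile and 63.6% with median scaling. The median of all genes shifted to -0.13 and -0.15 with normexp and to -0.15 and -0.14 with median scaling (tumor in WT and genotype without tumor). No paired analysis was possible because each group is 1 array. Tlr1, Tlr3, Tlr6, Tlr7 and Tlr8 are limited by signal near background.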
